A study of Homo sapiens with 4 samples.

Results

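The 9 genes described here, PLAU, PLAUR, MMP1, MMP14, AXL, MET, CAV1, CAV2 and ANXA1, are known from invasive breast cancer cells and from the basal B class of breast cancer cell lines. They were listed by name, with earlier results of these data known, and are 9 of the 20176 protein-coding genes and of the 64486 genes of the GENCODE annotation. H3K4me3, a histone mark of active promoters, was mapped by native ChIP-Seq in MDA-MB-231 cells, an established human triple-negative line of the basal B class. Cells received no peptide, Tat-SID at 1 μM or Tat-SID at 2.5 μM, and each condition gave 1 ChIP library, beside a library of input DNA. Tat-SID is a cell-permeable decoy peptide that carries the SIN3 interaction domain of MAD and competes for the PAH2 domain of the SIN3 scaffold. The lists used here hold regions where H3K4me3 was reduced at either dose or increased at 2.5 μM, all called by the authors against the same untreated library with the program SICER-df. Regions increased at 1 μM were not analysed here.

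Each list gives positions only, with no read number, fold change or FDR per region. No condition was replicated, so the values below describe these libraries and carry no test between conditions. The depth of the libraries is unknown here. A gene without a listed region did not pass the authors' threshold, which leaves the size of any change at that gene unmeasured. A gene was counted when a listed region lay within 3 kb of its gene start or of any transcript start site (TSS) of the annotation on GRCh37.

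Invading cells can cut the matrix around them, receive migratory signals and remodel the plasma membrane. The urokinase protease, encoded by PLAU, is held at the cell surface by its receptor, encoded by PLAUR, and turns plasminogen into plasmin. MMP1 encodes a secreted collagenase that cleaves fibrillar collagen, and MMP14 encodes a membrane-anchored metalloproteinase that activates proMMP2. AXL and MET encode receptor tyrosine kinases, for GAS6 and for hepatocyte growth factor respectively. CAV1 and CAV2 encode caveolins, the coat proteins of membrane pits called caveolae, and ANXA1 encodes annexin A1, a membrane-binding protein regulated by calcium.

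The sequences just before 5 of the start sites are shown because the promoters with a reduced region ranged from CpG-poor, TATA-containing sequence to CpG-rich sequence. Each is 150 bases of GRCh37 reference sequence upstream of the gene start, 5′ to 3′ on the strand of the gene, and overlaps 0 annotated exons. Capitals mark the letters of a searched motif on either strand, which was the TATA box (letters TATAAA) or the GC box (letters GGGCGG). ANXA1 is at chr9:75766631-75766780 (plus strand), AXL at chr19:41724978-41725127 (plus), PLAUR at chr19:44174700-44174849 (minus) and MET at chr7:116312100-116312249 (plus). CAV1, at chr7:116164898-116165047 (plus), is a promoter without a reduced region, shown for contrast.
ANXA1: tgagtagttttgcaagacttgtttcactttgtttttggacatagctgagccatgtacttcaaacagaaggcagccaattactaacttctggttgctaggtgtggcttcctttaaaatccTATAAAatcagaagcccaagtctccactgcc
AXL: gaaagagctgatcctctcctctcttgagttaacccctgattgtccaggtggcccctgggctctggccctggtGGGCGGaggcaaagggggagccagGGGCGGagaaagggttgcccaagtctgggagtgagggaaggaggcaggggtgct
PLAUR: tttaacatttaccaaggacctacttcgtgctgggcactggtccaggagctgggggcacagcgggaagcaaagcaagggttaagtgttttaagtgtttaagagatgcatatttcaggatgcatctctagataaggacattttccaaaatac
MET: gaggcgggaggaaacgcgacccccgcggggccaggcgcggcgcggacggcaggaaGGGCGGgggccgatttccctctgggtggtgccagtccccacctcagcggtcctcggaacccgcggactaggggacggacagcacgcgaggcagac
CAV1: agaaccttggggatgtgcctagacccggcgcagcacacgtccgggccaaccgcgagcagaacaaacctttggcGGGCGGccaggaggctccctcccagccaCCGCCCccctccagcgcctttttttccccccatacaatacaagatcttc

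At 2.5 μM Tat-SID, 5 of the 9 genes (55.6%) had a region with reduced H3K4me3: PLAUR, MMP1, AXL, MET and ANXA1. Among all annotated genes the share was 5.30% (3420 of 64486, 95% Clopper-Pearson interval 5.13% to 5.48%), and among protein-coding genes it was 10.8% (2178 of 20176, 10.4% to 11.2%). At 1 μM, 1 of the 9 genes, ANXA1, had a reduced region, beside 0.360% of all genes (232, 0.315% to 0.409%) and 0.674% of protein-coding genes (136, 0.566% to 0.797%). None of the 9 had an increased region at 2.5 μM, where the share was 0% of all genes (0 of 64486, upper limit 0.00572%) and 0% of protein-coding genes (upper limit 0.0183%). These intervals cover counting error over genes only, and they treat genes as independent although genes can share a region. Because the genes were chosen with earlier results known, the count of 5 of 9 is a description and not independent evidence. The lists held 141 reduced regions at 1 μM, 2063 reduced regions at 2.5 μM and 3 increased regions, and none of the 3 lay on a chromosome of any of the 9 genes. The reduced regions had a median length of 8599 bp at 1 μM and 4949 bp at 2.5 μM.

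Each of the 5 regions covered the canonical TSS of its gene, the start of the transcript that the annotation marks as representative. They ran from 208 to 1499 bp before that TSS and from 2370 to 8171 bp after it. All 5 extended further into the gene than upstream of it, as did 74.7% of the 1971 protein-coding genes whose canonical TSS lay in a 2.5 μM region. Those genes had a median of 1849 bp before the TSS (interquartile range 1279 to 2616 bp) and 3095 bp after it (2314 to 4118 bp). Upstream, 5 of the 5 genes had fewer bases than that median, and downstream 4 of 5 had more.

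**Figure D1:**
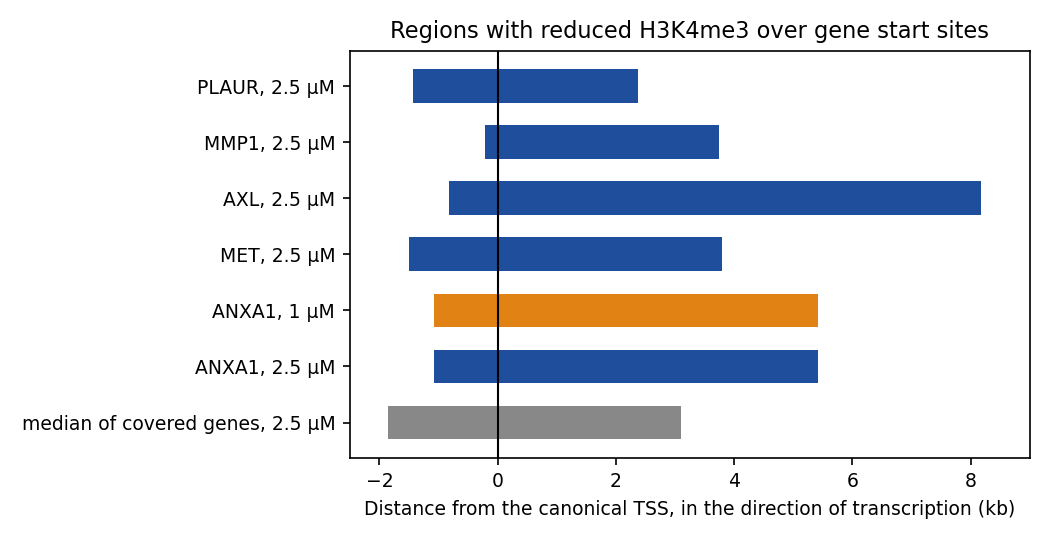
Extent of the regions with reduced H3K4me3 around the canonical TSS, in kb in the direction of transcription, with 1 bar per gene and dose (orange, 1 μM Tat-SID, blue, 2.5 μM). The grey bar joins the medians of the 1971 covered protein-coding genes, and the AXL bar reaches furthest into its gene, to 8171 bp.

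In the urokinase system the receptor gene was listed and the protease gene was not. The PLAUR region lay at chr19:44171951-44175749 over the start of the gene (chr19:44150247-44174699, minus strand). It was 3799 bp long, the shortest of the 5, with 20.5% of the 2063 regions shorter. It reached 1428 bp before the canonical TSS and 2370 bp after it, which held exon 1 of 7 with the start codon and 11.2% of the gene. The PLAUR gene has 16 annotated start sites, and 11 of them lay inside the region.

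PLAU (chr10:75668935-75677254, plus strand) had none within 3 kb of its 5 start sites at either dose. Its nearest 2.5 μM region, chr10:75531501-75535449, was 133 kb away and covered the TSS of FUT11, a fucosyltransferase gene. At 1 μM the nearest region was 10639 kb away, at the demethylase-family gene JMJD1C.

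The collagenase gene MMP1 (chr11:102660132-102668891, minus strand) had a region at chr11:102665151-102669099. It was 3949 bp long and began only 208 bp upstream of the TSS. Of the 1971 covered protein-coding genes, 3 (0.152%) had fewer bases upstream. The other 3740 bp lay inside the gene and held exons 1 to 6 of 10 with the start codon, 42.7% of the gene. This was the largest share of a gene among the 5, in the shortest gene of the 5 (8760 bp).

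MMP14 (chr14:23305769-23318250, plus strand) was not listed at either dose. The nearest region at 2.5 μM, chr14:23445551-23452999, was 135 kb away, over the TSS of AJUBA, which encodes a LIM-domain adaptor. At 1 μM the nearest was 5733 kb away.

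Both receptor tyrosine kinase genes had a region at 2.5 μM and none at 1 μM. The AXL region, chr19:41724301-41733299, was the longest of the 5 at 8999 bp, and 94% of the 2063 regions were shorter. It reached 827 bp before and 8171 bp after the start of AXL (chr19:41725128-41767671, plus strand), and 97.9% of covered genes had fewer bases after the TSS. It held exons 1 to 4 of 20 with the start codon, all 5 annotated AXL start sites and the TSS of the non-coding RNA gene ENSG00000269652. Reduced H3K4me3 in that stretch cannot be told apart between the overlapping genes.

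The MET region, chr7:116310751-116316049, was 5299 bp long, close to the median, with 57.5% of regions shorter. It ran from 1499 bp before to 3799 bp after the start of MET (chr7:116312250-116438431, plus strand). It held exon 1 of 21, without the start codon, and 3.01% of this long gene. Of its 4 annotated start sites 2 were inside, where 5 of the 7 transcripts begin.

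PLAUR and AXL lie on chromosome 19, which had 31 of the 2063 reduced regions and no 1 μM region. There 43 of 1480 protein-coding genes (2.91%) had a reduced region at 2.5 μM. On the other chromosomes that carry these genes the share was 9.97% on chromosome 7, 9.01% on 9, 13.2% on 10, 8.28% on 11 and 17% on 14.

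ANXA1 (chr9:75766781-75785309, plus strand) was listed at both doses, with the same region each time, chr9:75765701-75772199. Identical ends were seen for 34 of the 141 regions at 1 μM (24.1%), and both lists share the untreated library. The region was 6499 bp long, shorter than most at 1 μM (19.1% of 141 were shorter) and longer than most at 2.5 μM (78.2% of 2063 were shorter). It reached 1080 bp before the TSS and 5418 bp after it, and held exon 1 of 13 without the start codon, 29.2% of the gene. Protein-coding genes with a canonical TSS in a 1 μM region, of which there were 115, had medians of 2461 bp before and 5927 bp after, so ANXA1 was below both.

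Neither caveolin gene was listed at either dose, although they neighbour MET on chromosome 7. CAV1 (chr7:116165048-116201233, plus strand) was 144 kb from its nearest 2.5 μM region, which was the MET region. CAV2 (chr7:115927434-116148595, plus strand) was 35.5 kb from a region of 3049 bp, chr7:115965451-115968499. That region lay within the annotated span of CAV2, at the TSS of the non-coding RNA gene ENSG00000243243, and 171 kb from the canonical CAV2 TSS at position 116139792. The annotated CAV2 gene start lies 212358 bp upstream of its canonical TSS, so the shorter distance is to a start site other than the canonical one. Further upstream, a region of 4999 bp covered the start of TES, which encodes the focal adhesion protein testin, at -461.7 kb from the start of MET.

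**Figure D2:**
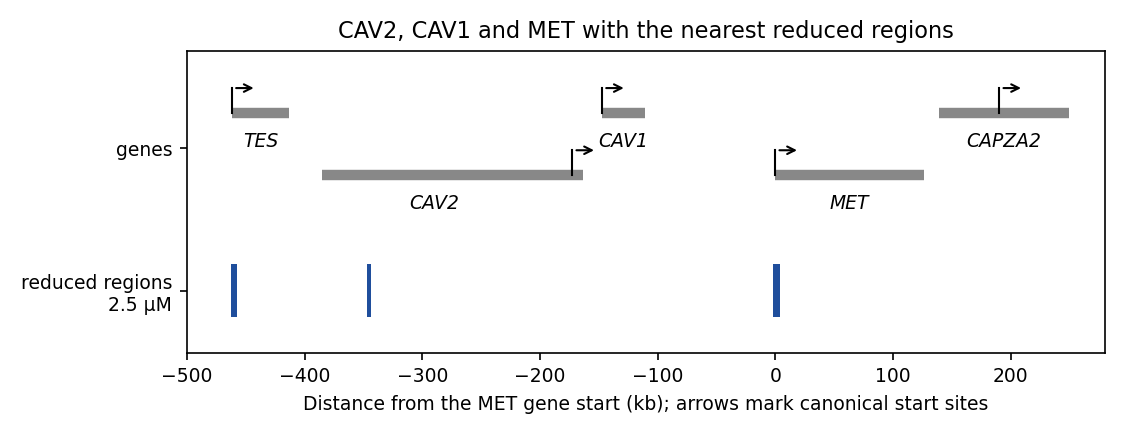
Annotated genes (grey, arrows at canonical start sites) and the reduced regions of the 2.5 μM list (blue) along chromosome 7, in kb from the start of MET. The 3 regions lie at TES, inside the annotated span of CAV2 and at MET, and the canonical start sites of CAV2 (-172.5 kb) and CAV1 (-147.2 kb) have none.

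The 4 genes without a region at 2.5 μM were nearer to one than most genes of that kind. Among the 17920 protein-coding genes with no 2.5 μM region within 3 kb, the median distance was 475 kb, and 5.14% were nearer than CAV2, 19.6% nearer than PLAU, 19.7% nearer than MMP14 and 20.9% nearer than CAV1. These shares use any start site, and that of CAV2 rests on 35.5 kb from a start site other than the canonical one. From the canonical TSS, CAV2 was the furthest at 171 kb, beside 135 kb for PLAU, 140 kb for MMP14 and 146 kb for CAV1. The region nearest to CAV1 was that of MET. At 1 μM the nearest regions to these 4 genes were between 5733 and 10639 kb away. Those nearest to MMP1 and MET were 19357 and 10385 kb away.

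**Figure D3:**
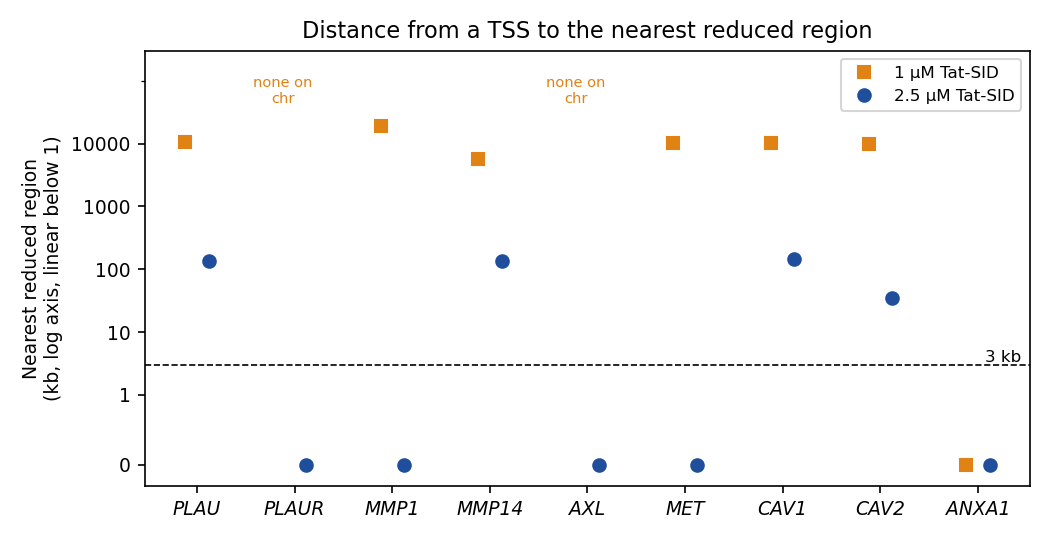
Distance in kb (log axis, linear below 1) from the nearest gene start or TSS of each gene to the nearest region with reduced H3K4me3 at 1 μM (orange squares) and 2.5 μM Tat-SID (blue circles). Points at 0 lie in a region, the dashed line marks 3 kb, and chromosome 19 has no 1 μM region for PLAUR and AXL.

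Promoter composition differed widely among the 5 genes with a region. Within 1 kb on each side of the canonical TSS, GC content was 33.8% for ANXA1, 43.8% for MMP1, 51.3% for PLAUR, 56.2% for MET and 60.7% for AXL, beside a median of 55.9% over 20152 protein-coding genes. The CpG ratio, of observed to expected dinucleotides, was 0.124 for ANXA1, 0.157 for MMP1 and 0.268 for AXL, against 0.593 for PLAUR and 0.829 for MET, with a median of 0.635. Over the 2178 protein-coding genes with a reduced region at 2.5 μM, the median GC content was 55.6% and the median CpG ratio 0.746. Only 1.27% of protein-coding genes had a lower GC content than ANXA1. In the printed sequences, which end at the gene start, ANXA1 holds 0 CpG, AXL and PLAUR hold 2 each, CAV1 holds 10 and MET holds 19. Before the canonical TSS of PLAUR, 378 bp further into the gene, the same length of sequence holds 11 CpG. Its GC content is 66%, against 44% in the printed one. The canonical TSS of CAV1 lies 42 bp further into its gene, and the same length before it holds 6 CpG. The 4 genes without a region had GC contents from 55.7% (CAV1) to 61.6% (CAV2) and CpG ratios from 0.557 (PLAU) to 0.701 (CAV2).

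With a CpG promoter defined by a GC content over 50% and a CpG ratio over 0.6, a reduced region was present at 1 of 4 genes with such a promoter (MET) and at 4 of 5 without one (PLAUR, MMP1, AXL and ANXA1). Over all protein-coding genes the order was the opposite, with 15.0% of 10237 CpG promoters and 6.51% of 9915 other promoters listed. PLAU and PLAUR lie just under the ratio of 0.6. With a ratio over 0.55 the counts were 2 of 6 and 3 of 3, beside 14.1% and 6.54% of all protein-coding genes, a setting chosen after seeing the data. Counts of this size describe the 9 genes only.

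**Figure D4:**
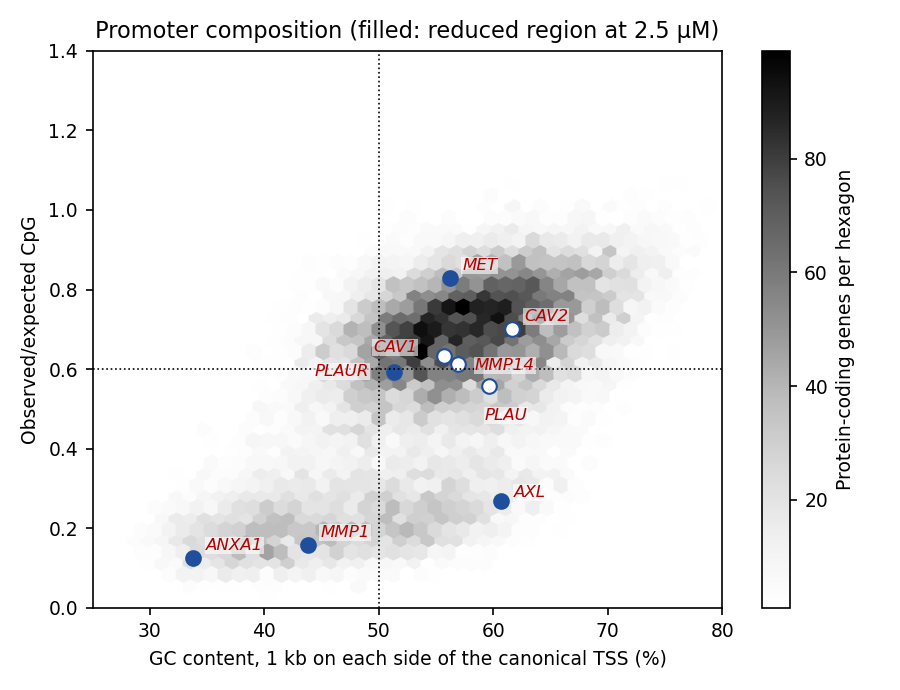
GC content in percent (x axis) and ratio of observed to expected CpG (y axis) 1 kb on each side of the canonical TSS, for 20152 protein-coding genes (grey hexagons, darker with more genes) and the 9 genes (filled circles, reduced region at 2.5 μM, open circles, none). ANXA1, MMP1 and AXL lie at CpG ratios of 0.124 to 0.268 and MET at 0.829, and dotted lines mark 50% and 0.6.

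Motif letters were searched on both strands from 250 bp before to 50 bp after the gene start, with position -1 as the last base before it, in 8 of the 9 genes. The AP-1 letters TGANTCA were in 0 of the 8, beside 6.36% of 20152 protein-coding promoters. Counted from the canonical TSS instead, PLAUR held them as TGAGTCA at -186. TATAAA was found in ANXA1 at -31, beside 10.9% of promoters. The GC box letters were in PLAU, MMP14, AXL, MET and CAV1, beside 52.2%, and from the canonical TSS they were also in CAV2. The gene starts of CAV2 and PLAU lie 212358 and 1955 bp upstream of their canonical TSS, so their main windows were that far from it. The E-box letters CACGTG were in MET at 3, beside 8.33%, and the TEAD letters GGAATG were in PLAUR at -156 on the other strand, beside 12.8%. Among promoters of genes with a reduced region at 2.5 μM the shares were 6.11% for AP-1, 10.1% for TATAAA, 58.7% for the GC box, 7.85% for the E-box and 12.1% for TEAD. None of the 5 motifs was present in every one of the searched genes with a region, and no matches overlapped one another in these windows. A match describes the sequence and is not evidence that a factor binds there.

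Genes related to these 9 by family, pathway or marker class were then counted by list. The shares to set beside each count were 10.8% of protein-coding genes at 2.5 μM and 0.674% at 1 μM. The lists are short and were written with the results of the whole series known. No count was tested against these shares. Of the other 9 genes of the plasminogen activator system, 2 (22.2%) had a reduced region at 2.5 μM and none at 1 μM. They were PLAT, the gene of tissue plasminogen activator (3999 bp), and S100A10, which encodes a plasminogen-binding partner of annexin A2 (7499 bp). The nearest of the others was the plasminogen receptor gene PLGRKT, at 11.3 kb, followed by VTN at 343 kb and LRP1 at 402 kb.

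Of 26 other matrix metalloproteinase genes and their inhibitors, 0 had a reduced region at either dose, and the median distance at 2.5 μM was 322 kb. MMP1 lies in a cluster of such genes on chromosome 11, and its neighbours MMP10, MMP3, MMP8 and MMP12 were 13.8, 40.3, 67.4 and 76.6 kb from a region. For each of these neighbours that region was the MMP1 region itself. MMP19, on another chromosome, was 20.3 kb from a region.

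Of 14 genes for ligands, related receptors and partners of AXL and MET, 0 had a region at either dose. The adaptor gene GAB1 was 46.4 kb from the nearest 2.5 μM region, the protease gene ST14 86.4 kb and the AXL-related receptor gene TYRO3 195 kb. Of 9 other genes of caveolae and flotillins, again 0 were listed, with the flotillin gene FLOT1 at 17.1 kb and the caveola gene CAVIN1 at 34.7 kb.

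Among 16 annexin genes and ANXA1 receptor and partner genes, 3 (18.8%) had a region at 2.5 μM and 0 at 1 μM. These were ANXA2 (10299 bp), ANXA5 (8049 bp) and ANXA11 (7999 bp), all encoding calcium-dependent membrane-binding proteins, and each region was longer than that of ANXA1. ANXA6 was 17.2 kb away and S100A11, the gene of an ANXA1 binding partner, 41.6 kb. The receptor gene FPR1 was 177 kb away.

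The list of other basal B markers had the highest share, with 12 of 14 genes (85.7%) at 2.5 μM. Like the other lists, it was written with the results of the whole series known, those for CD44 among them. Its count is therefore a description and not independent evidence for any of its genes. The 12 were the cytoskeletal genes VIM (9099 bp) and MSN (10149 bp), the receptor genes CD44 (8049 bp), EPHA2 (13999 bp) and TGFBR2 (9599 bp), the transcription factor genes FOSL1 (17749 bp) and ETS1 (9449 bp), the matrix genes FN1 (4999 bp), LOX (4349 bp), CCN1 (11549 bp) and CCN2 (6699 bp), and NT5E (8649 bp), which encodes the ectoenzyme CD73. At 1 μM, 4 of 14 were listed, MSN (10449 bp), FOSL1 (18249 bp), TGFBR2 (10099 bp) and ETS1 (8899 bp). The ETS1 region did not cover the canonical ETS1 TSS at either dose. SPARC and EGFR were not listed and lay 82.8 and 258 kb from a 2.5 μM region.

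**Figure D5:**
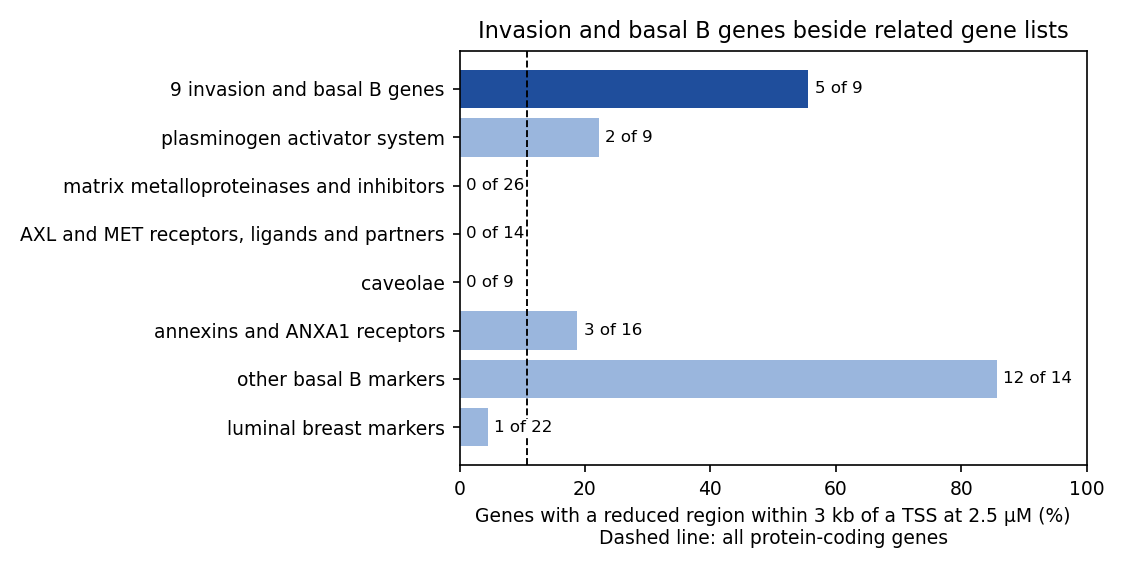
Share of genes in percent counted as reduced at 2.5 μM Tat-SID (region at most 3 kb from a TSS), with 1 bar per list and the count beside it. The dashed line marks 10.8%, the share of all protein-coding genes, and the 9 genes stand at 5 of 9, other basal B markers at 12 of 14 and luminal markers at 1 of 22.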

How the data were processed

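H3K4me3 ChIP-Seq and input libraries came from MDA-MB-231 cells, with 1 library per condition. Per the labels and the study's methods, the authors checked reads with FastQC (0.10.0), aligned them to hg19 (GRCh37) with Bowtie (1.0.0), made tracks over input with MACS2 (2.1.0) and called changed regions with SICER-df. The deposited lists hold other values than counts or signal, namely the position of each region. Direction and an FDR threshold of 1e-15 stand in the names of the deposited lists. The paper's results give the same threshold for promoters with changed H3K4me3, and its methods text states a less strict one.

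Regions were matched to GENCODE release 44 on GRCh37. No region ended beyond its chromosome. The 9 genes and the related lists were chosen with earlier results of these data known. Named genes were the 9 genes, list genes with a region, up to 5 nearest list genes without one and genes sharing a region. No difference was tested. The promoter sequence and motifs of 1 of the 9 genes are not reported here. The window match was tested on simulated data. Alternatives changed the window (10 kb, covered TSS base), the TSS set, a minimum length of 1000 bp and merging within 3000 bp. The software was Python 3.11.15, numpy 2.4.6, scipy 1.17.1 and matplotlib 3.10.9.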

Additional observations from a re-analysis of the deposited data

How the results depend on the processing

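With a TSS window of 10 kb, with a region required to cover a TSS base, with the gene start only, with basic transcripts only, with regions of at least 1000 bp and with regions within 3000 bp merged, the counts stayed at 5, 1 and 0 of the 9 genes, with the same genes each time. Of the 88 genes in the related lists, luminal markers aside, 17 were listed at 2.5 μM, and 14 with the gene start only, where ANXA2, MSN and ETS1 were not. The share of all genes at 2.5 μM was 6.35% with 10 kb, 4.89% with a covered TSS base and 4.84% with the gene start only, against 5.30%. The share of protein-coding genes was 11.6% with 10 kb and 9.5% with the gene start only, against 10.8%. From the gene start only, the nearest region was 140 kb from MMP14, 146 kb from CAV1 and 38 kb from CAV2. With the canonical TSS as reference the AP-1 letters were in PLAUR, the GC box letters in 6 genes (CAV2 added) and the TEAD letters in 0 of the 8 genes searched. With 500 bp upstream of the gene start, AP-1 was in CAV2, TATAAA in CAV2 and ANXA1 and TEAD in PLAUR and AXL. These CAV2 matches lay near its annotated gene start, 212358 bp upstream of its canonical TSS. In the window at the canonical CAV2 TSS only the GC box letters were found. No paired analysis was possible because the conditions were not replicated and nothing was tested. The unknown depth limits which regions could pass the threshold.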

Other observations

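Luminal breast markers were set beside the 9 genes, and which of them are silent in MDA-MB-231 cells is not known from the lists. Of 22 such genes, 1 (4.55%) had reduced H3K4me3 by the same rule at 2.5 μM and 0 at 1 μM. The shares of all protein-coding genes were 10.8% and 0.674%. This list, too, was written with results known, and no difference from those shares or from the 9 genes was tested. The 1 listed gene was XBP1 (4149 bp), the gene of a transcription factor of the unfolded protein response that is active in many cell types. The next nearest were ERBB3 at 15.4 kb, ESR1 at 38.8 kb, KRT18 at 52.6 kb, KRT8 at 54.4 kb and EPCAM at 167 kb. The level of H3K4me3 at these promoters in untreated cells is not known from the lists, so a promoter without the mark and a marked promoter without a listed change cannot be told apart. The same holds for PLAU, MMP14, CAV1 and CAV2.

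Around the metalloproteinase cluster that holds MMP1, the apoptosis inhibitor genes BIRC3 and BIRC2 and the neighbouring genes TMEM123 and DCUN1D5 had a region at a TSS at 2.5 μM, at gene starts 481, 451, 328 and 294 kb from that of MMP1. Of the other 8 metalloproteinase genes within 500 kb of MMP1, 0 had one. These neighbours were named after their values were seen.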
